A study of Xenopus laevis with 3 samples.

Results

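Translation initiation factors and aminoacyl-tRNA synthetases were followed in the liver of female African clawed frogs (Xenopus laevis) given pregnenolone, artemisinin or the solvent DMSO. Members were taken by gene symbol: every gene copy whose symbol begins with eif and a digit, the eIF2 kinases left out, and every copy whose symbol is that of a synthetase in the list used. The rule gave 79 gene copies of 11303 with a symbol on the array, 50 of initiation factors (40 genes) and 29 of synthetases (24 genes). Each copy, marked .L or .S after the longer or the shorter member of each chromosome pair in this allotetraploid frog, has the value of its brightest probe set (highest mean over the arrays), with no filter on level.

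The series holds 3 Affymetrix arrays, 1 for each group, hybridised with liver RNA that had been pooled over the frogs of the group. Pregnenolone, a steroid made from cholesterol, was given at 50 mg/kg and artemisinin, an antimalarial drug, at 200 mg/kg, both dissolved in DMSO and injected into the body cavity of 3 frogs on 2 consecutive days. Control frogs received DMSO alone in parallel, and the labels do not spell out their number. Livers were taken 24 h after the second injection from frogs kept at 22 °C, and the study sought genes controlled by xlCAR, a nuclear receptor named after the mammalian constitutive androstane receptor. Because each group is a single array, no difference below was tested and none has an error between animals. Doses of the compounds differed, and a lower level in a pool can come from fewer cells of a type or from less RNA per cell, which cannot be told apart.

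Initiation factors bring the initiator tRNA, the messenger and the ribosome together at the start codon. Synthetases load each amino acid onto its tRNA, and most animals use separate sets in the cytosol and in mitochondria. In mammalian cells the pathways meet at eIF2: when its kinases phosphorylate it, translation slows in general while the transcription factor ATF4 is made, and ATF4 is known to raise many cytosolic synthetase genes together with amino acid transporters and biosynthetic enzymes. The liver uses this machinery to make most plasma proteins.

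On the deposited log2 scale the members' values ran from 3.49 to 12.72 for initiation factors and from 5.26 to 12.41 for synthetases. By the mean over the 3 arrays, only eif5b.L and aars2.L lay below the level of the median probe set (5.61). The other 77 of the 79 copies were at or above it. The hepatocyte markers checked were present, with 14 copies between 8.29 and 14.47 on all arrays, but not all were steady. With pregnenolone 1 of them was at least 1.5-fold above DMSO (apoa1.L, 2.51) and 3 below (among them ttr.L, -1.86). With artemisinin 2 were above DMSO and 0 below, and between the compounds 4 were higher with artemisinin and 2 lower. Of all gene copies, 4.64% were higher and 3.75% lower with pregnenolone, and 2.35% and 2.26% with artemisinin. Between the compounds 3.89% were higher with artemisinin and 4.86% lower. These shares also stand beside the counts of the other markers below. The pools differed in other cells: the summed linear level of 23 exocrine pancreas copies was 663 on the pregnenolone array, 635 on the artemisinin array and 10068 on the DMSO array, and that of 13 smooth muscle and stroma copies was 2111, 1694 and 3760 in the same order. No marker had a value of 0, which this scale does not give, and 12 of the 23 pancreas copies were at least 1.5-fold lower than DMSO with each compound. None of the 23 differed by 1.5-fold between the artemisinin and pregnenolone arrays. Erythrocyte markers did differ there: 5 of 9 copies were at least 1.5-fold lower with artemisinin than with pregnenolone (median -0.64, with alas2.S at -1.40), and 5 of 9 were lower than with DMSO (median -0.72). Their summed level, made up mostly of globins near the top of the scale, was 46747 on the pregnenolone array, 41653 on the artemisinin array and 44593 on the DMSO array. The summed level of 9 leukocyte copies was 6394 on the pregnenolone array, 7086 on the artemisinin array and 8138 on the DMSO array. That of 7 bile duct copies was 2198, 2703 and 2970 in the same order. The part of all these cells in the results below was not tested.

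The first comparison asked which of these genes differed after pregnenolone. Cytosolic synthetases made up most of the members that were higher. Of the 29 synthetase copies, 11 (37.9%) were at least 1.5-fold higher with pregnenolone than with DMSO and 0 were lower, beside 4.64% higher and 3.75% lower among all 11303 gene copies. The median log2 difference was 0.36 for synthetases and 0.00 for all gene copies. Among gene copies at or above the median level, which hold 28 of the 29 synthetases, 6.22% were at least 1.5-fold higher. All 11 higher copies belonged to the 23 cytosolic ones, whose median was 0.56. At 2-fold, 4 synthetase copies were higher, beside 1.44% of all gene copies.

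The highest difference was that of aars1.L (Entrez gene 100158432), which encodes the alanyl-tRNA synthetase. Its value was 11.13 on the pregnenolone array, 9.85 on the artemisinin array and 9.80 on the DMSO array, so pregnenolone stood apart from the other two arrays with a 2.52-fold difference from DMSO (log2 difference 1.33). The threonyl-tRNA synthetase gene tars1.L (447636) had 10.09 with pregnenolone, 9.56 with artemisinin and 8.999 with DMSO. Here artemisinin lay between, and the log2 differences from DMSO were 1.09 and 0.56. For vars1.S (495303), which charges the valine tRNA, the values were 9.62 with pregnenolone, 8.49 with artemisinin and 8.56 with DMSO. Pregnenolone was again the high array, 1.06 above DMSO.

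The methionyl-tRNA synthetase, which also charges the initiator tRNA, was measured in both copies. The values of mars1.L (446558) were 8.30 with pregnenolone, 7.53 with artemisinin and 7.26 with DMSO. Those of mars1.S (379675) were 7.47, 7.12 and 6.90 in that order. Both copies had the same order of arrays, with pregnenolone 1.05 above DMSO for the .L copy and 0.56 for the .S copy, which lay just under 1.5-fold (0.58 on the log2 scale). For the alpha subunit of the phenylalanyl-tRNA synthetase, farsa.L (7.51 with pregnenolone, 7.46 with artemisinin and 6.61 with DMSO) was 0.90 above DMSO with pregnenolone. The other copy, farsa.S, had 8.56, 8.17 and 7.94 and was 0.62 above DMSO. The beta subunit farsb.L was 0.23 above DMSO, at 8.69 with pregnenolone against 8.46 with DMSO. Whether the subunits of this enzyme differ cannot be told from 1 array per group.

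Further copies past 1.5-fold with pregnenolone carried tryptophan, tyrosine, serine, cysteine and leucine. The tryptophanyl-tRNA synthetase wars1.L was at 6.22 with pregnenolone, 5.77 with artemisinin and 5.26 with DMSO, a difference of 0.96 for pregnenolone. Its DMSO value lay below the level of the median probe set, where background weighs more. The tyrosine enzyme yars1.S was at 9.16, 8.71 and 8.22 in the same order of arrays, 0.94 above DMSO with pregnenolone. In both genes artemisinin lay between the other arrays. The serine enzyme sars1.L (10.01, 9.37 and 9.24) differed by 0.76, the cysteine enzyme cars1.S (9.56, 9.02 and 8.89) by 0.67 and the leucine enzyme lars1.L (8.89, 8.13 and 8.26) by 0.64. For these genes the artemisinin value stayed within 0.13 of DMSO.

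**Figure D1:**
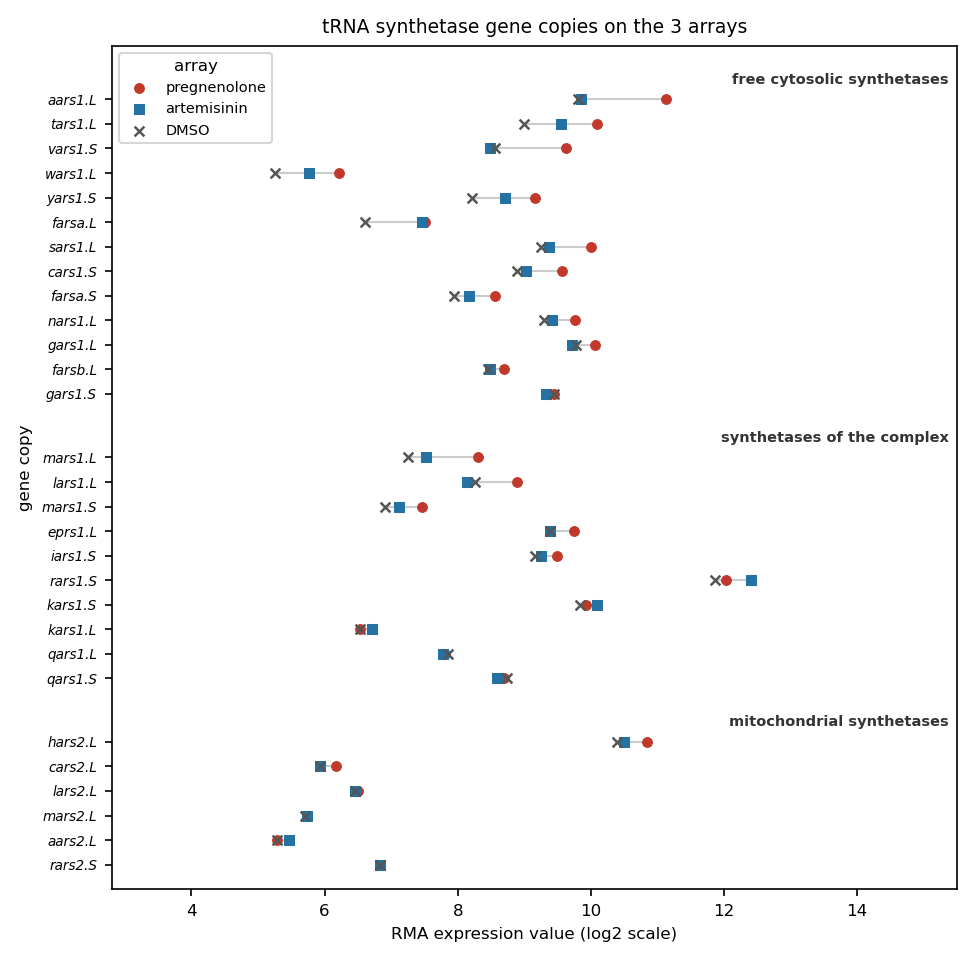
RMA values on the log2 scale (x axis) of the 29 synthetase gene copies (y axis), with pregnenolone as red circles, artemisinin as blue squares and DMSO as grey crosses, in 3 classes ordered by the pregnenolone difference. In the class of free cytosolic enzymes the red circle lies right of the cross by up to 1.33, whereas the 3 symbols of the mitochondrial lars2.L, mars2.L and rars2.S nearly coincide.

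The copies within 1.5-fold of DMSO were not spread evenly over the classes of enzyme. In animals several cytosolic synthetases (those for glutamate and proline, isoleucine, leucine, methionine, glutamine, lysine, arginine and aspartate) sit in a large multisynthetase complex. The others lie outside it and are called free here. This division was made with the values known, and is a description. Among 13 copies of free enzymes 9 were at least 1.5-fold higher with pregnenolone, with a median of 0.76. Those that were not higher were farsb.L, nars1.L (0.47) and both copies of the glycine enzyme, gars1.L (0.28) and gars1.S, which had the same value of 9.45 on the pregnenolone and DMSO arrays. Of 10 copies of complex enzymes 2 were higher, mars1.L and lars1.L, with a median of 0.25. Among all gene copies 4.64% were higher. The split depends on the threshold and on the probe set used. In the complex class mars1.S (0.56) lay just under 1.5-fold, and a dimmer probe set of iars1.S gave 2.28.

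Within the complex, the glutamine and lysine enzymes lay closest to DMSO. The values of qars1.L were 7.81 with pregnenolone and 7.85 with DMSO, and those of qars1.S were 8.69 and 8.74. The lysine enzyme, which serves both cytosol and mitochondria in mammals, had 6.53 with pregnenolone and 6.54 with DMSO for kars1.L, and 9.92 and 9.84 for kars1.S. The arginine enzyme rars1.S was 0.16, the isoleucine enzyme iars1.S 0.33 and the double enzyme for glutamate and proline eprs1.L 0.36 above DMSO. The copies of the aspartate enzyme were not analysed here.

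Mitochondrial synthetases, named by the number that ends their symbols, had a median difference of 0.04 with pregnenolone. None of the 6 member copies was past 1.5-fold in any comparison, a number too small to set apart from the 4.64% of all gene copies that were higher with pregnenolone. The arginine enzyme rars2.S had the same value, 6.83, on all 3 arrays. The largest difference was that of hars2.L, the one histidine enzyme measured, at 10.84 with pregnenolone, 10.49 with artemisinin and 10.39 with DMSO, or 0.45 for pregnenolone. It was followed by cars2.L (0.24), whose value of 5.93 was shared by the artemisinin and DMSO arrays.

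Initiation factors differed less after pregnenolone. At least 1.5-fold higher were 4 of the 50 copies and 0 were as far below DMSO. Their median was 0.14, and no copy reached 2-fold. The share of 8.0% stands beside 4.64% of all gene copies and 6.22% of those at or above the median level, so at this threshold the group lay close to the background. In sign, 38 copies were above DMSO, 9 below and 3 equal. Of all 11303 gene copies, 4404 were above, 4137 below and 2762 equal. The 4 initiation factor copies past 1.5-fold were the helicase gene eif4a1.S and 3 of the 5 copies that encode proteins binding the cap at the start of the messenger.

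Cap binding is the step at which the messenger is recognised. The gene of the main cap-binding protein, eif4e.L (734259), had 9.21 with pregnenolone, 8.69 with artemisinin and 8.51 with DMSO. Pregnenolone was the high array, 0.70 above DMSO. The copy eif4e1b.S (399255), a form known from frog oocytes, for which RefSeq also lists the synonym eif4e, had 9.31, 8.69 and 8.69 and differed by 0.62. For eif4e3.L the values were 6.69 with pregnenolone, 6.30 with artemisinin and 6.03 with DMSO, a difference of 0.66. The other copy, eif4e3.S (8.95, 9.04 and 8.52), differed by 0.43 and eif4e2.L, whose protein is a weak rival for the cap in mammals, by 0.26. The scaffold that joins the cap-binding protein to the helicase stayed under 1.5-fold: eif4g1.L was at 10.10 with pregnenolone and 9.69 with DMSO, eif4g1.S at 10.76 and 10.30, and eif4g3 at 8.39 and 8.09. Among the proteins that hold eIF4E away from the scaffold, eif4ebp2.L was 0.40 and eif4ebp2.S 0.06 above DMSO, and eif4enif1.L and eif4enif1.S lay within 0.06 of it.

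The helicase gene eif4a1.S unwinds the leader of the messenger and was high with both compounds. Its values were 10.57 with pregnenolone, 10.82 with artemisinin and 9.71 with DMSO, so the DMSO array stood apart. Log2 differences were 0.86 for pregnenolone and 1.11 for artemisinin. A second, much dimmer probe set of this copy (5.16, 5.77 and 5.24) gave -0.07 and 0.53, while a probe set annotated to both copies of the gene, and therefore left out of the counts, gave 0.61 and 0.67. The related eif4a2.L (-0.11 with pregnenolone) and the helicase partners eif4b.S (0.13), eif4h.L (-0.09) and eif4h.S (0.00) lay near DMSO.

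**Figure D2:**
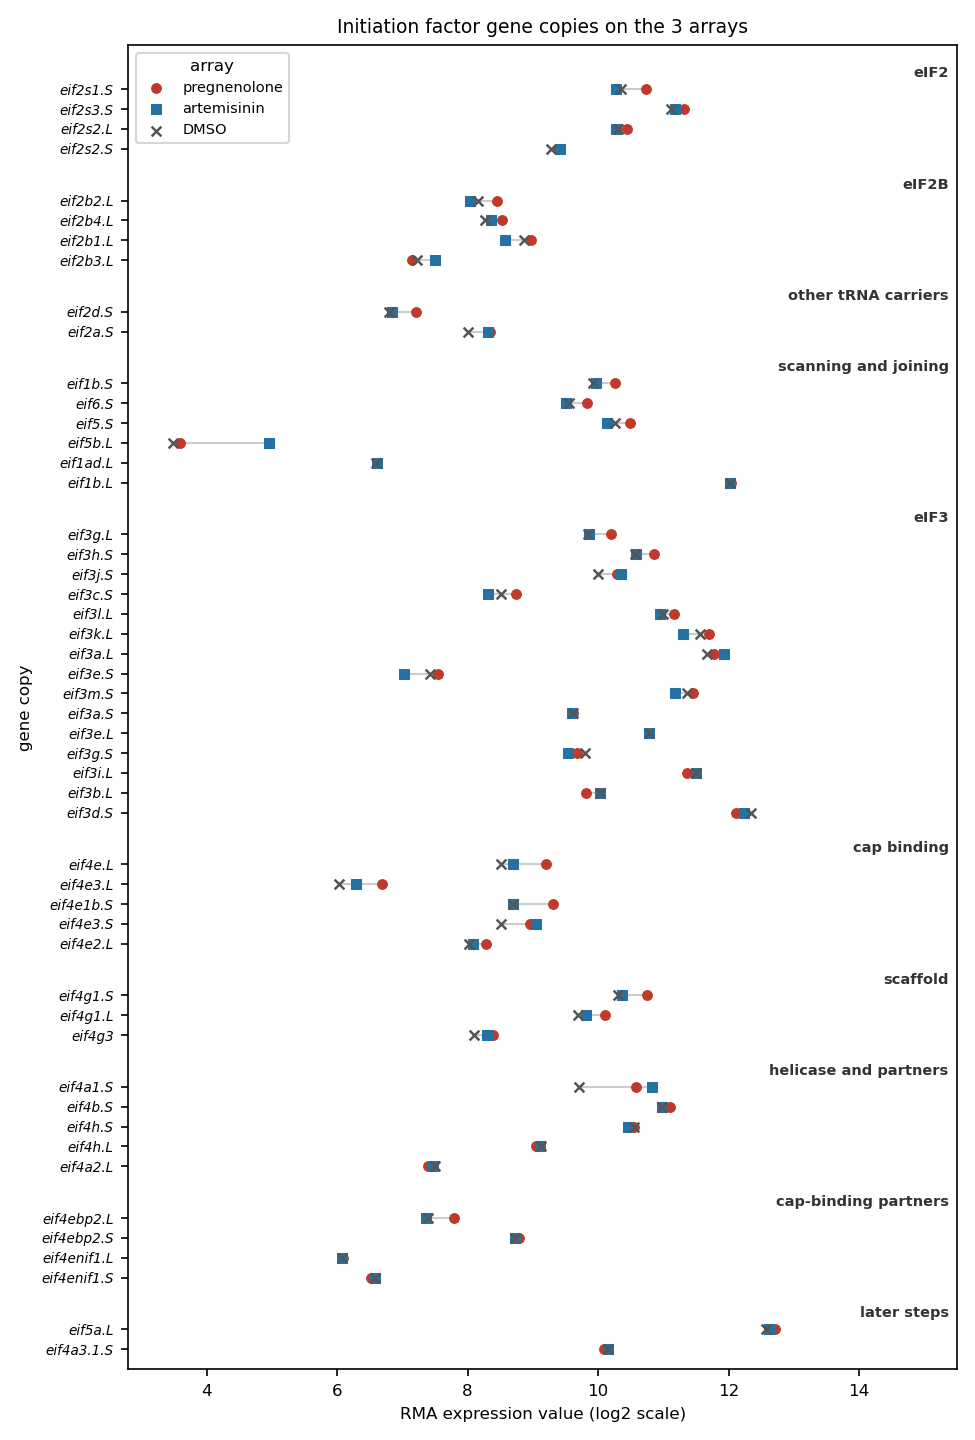
RMA values on the log2 scale (x axis) of the 50 initiation factor gene copies (y axis) grouped by role, with pregnenolone as red circles, artemisinin as blue squares and DMSO as grey crosses. The circle stands clear of the other symbols for eif4e.L and eif4e1b.S, the cross stands apart at eif4a1.S, and the square stands apart at eif5b.L, which lies at the bottom of the scale.

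Genes of eIF2, which delivers the initiator tRNA, and of its exchange factor eIF2B were all within 1.5-fold of DMSO with pregnenolone. The alpha subunit gene eif2s1.S, whose protein the kinases phosphorylate, was at 10.74 with pregnenolone, 10.28 with artemisinin and 10.36 with DMSO, a difference of 0.38. The beta subunit genes eif2s2.L (0.13) and eif2s2.S (0.10) and the gamma subunit gene eif2s3.S (0.19) differed less. For eIF2B the differences ran from -0.08 for eif2b3.L to 0.28 for eif2b2.L over 4 copies. The factors eif2d.S (0.42) and eif2a.S (0.33), which can carry tRNA to the ribosome without eIF2, were also above DMSO and under 1.5-fold.

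Genes of the scaffold complex eIF3 lay near DMSO. Its 15 copies, of 12 subunit genes, had a median of 0.11 with pregnenolone, from -0.22 for eif3d.S to 0.36 for eif3g.L. The other copy of that gene, eif3g.S, was at -0.12. Of the remaining factors, the start-site factor eif1b.S was 0.34, the joining factor eif5.S 0.23 and the ribosome anti-association factor eif6.S 0.28 above DMSO. The elongation and termination factor eif5a.L was at 12.72 with pregnenolone and 12.58 with DMSO, and the exon junction helicase eif4a3.1.S at 10.09 and 10.14.

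With artemisinin, most members lay near DMSO. At 1.5-fold, 1 of the 29 synthetase copies was above DMSO and 0 were below. The median was 0.10. This stands beside 2.35% higher and 2.26% lower among all gene copies. That copy was farsa.L, at 0.84. At the same threshold 2 of the 50 initiation factor copies were above DMSO and 0 below, and their median was 0.00. They were eif4a1.S and the subunit joining factor eif5b.L (446935), a GTPase, which had 4.96 with artemisinin and 3.49 with DMSO, a difference of 1.48 at a level where the size depends on the background. Both comparisons with DMSO share the DMSO array.

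In sign, 20 of the 29 synthetase copies were above DMSO with artemisinin, 6 below and 3 equal. Of all 11303 gene copies, 4195 were above, 4386 below and 2722 equal. After farsa.L the highest synthetase copies were tars1.L (0.56), rars1.S (0.54), wars1.L (0.51) and yars1.S (0.49). For the arginine enzyme rars1.S, artemisinin was the highest array, with 12.03 on the pregnenolone array, 12.41 on the artemisinin array and 11.87 on the DMSO array. The copies aars1.L (0.05), vars1.S (-0.07), sars1.L (0.13), cars1.S (0.13) and lars1.L (-0.12), all past 1.5-fold with pregnenolone, lay within 0.13 of DMSO with artemisinin. Among initiation factors, eif4e3.S (0.52) and eif3j.S (0.34) were the next highest and eif3e.S (-0.40) and eif2b1.L (-0.29) the lowest.

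The arrays of the compounds were then set against each other. This comparison leaves out the DMSO array with its higher pancreas markers. It holds the differences in hepatocyte, smooth muscle and stroma, erythrocyte, leukocyte and bile duct markers given above. It uses the same pregnenolone array as the first comparison, so it gives no separate support to that result. Of the 29 synthetase copies 0 were at least 1.5-fold higher with artemisinin than with pregnenolone and 5 (17.2%) were lower, beside 3.89% higher and 4.86% lower among all gene copies. The median was -0.34, and 23 synthetase copies were lower with artemisinin, 4 higher and 2 equal. Of all 11303 gene copies, 4648 were lower, 4278 higher and 2377 equal. The 5 synthetase copies past 1.5-fold were aars1.L (-1.28, 2.43-fold), vars1.S (-1.13, 2.19-fold), mars1.L (-0.77), lars1.L (-0.76) and sars1.L (-0.64). All of them were also past 1.5-fold above DMSO on the pregnenolone array. All 13 free cytosolic copies were below pregnenolone on the artemisinin array, from -1.28 to -0.05 with a median of -0.45. The 4 copies above it were rars1.S (0.38), aars2.L (0.18), kars1.L (0.17) and kars1.S (0.16). The value of kars1.S is from an s_at probe set with a mean of 9.95. Its other probe set, with a mean of 9.62, gave -0.11.

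Between the compounds the initiation factors again differed little. At 1.5-fold 1 of the 50 copies was higher with artemisinin, eif5b.L (1.36), and 1 lower, eif4e1b.S (-0.61). Among all gene copies 3.89% were higher and 4.86% lower, so at this threshold the group did not stand out. The median of the initiation factors was -0.13. The cap-binding genes were mostly lower with artemisinin, at -0.52 for eif4e.L and -0.40 for eif4e3.L, while eif4e3.S was at 0.09. The eIF2 alpha subunit gene eif2s1.S was at -0.46. In sign, 34 initiation factor copies were lower with artemisinin, 14 higher and 2 equal, beside 4648, 4278 and 2377 of all 11303 gene copies.

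**Figure D3:**
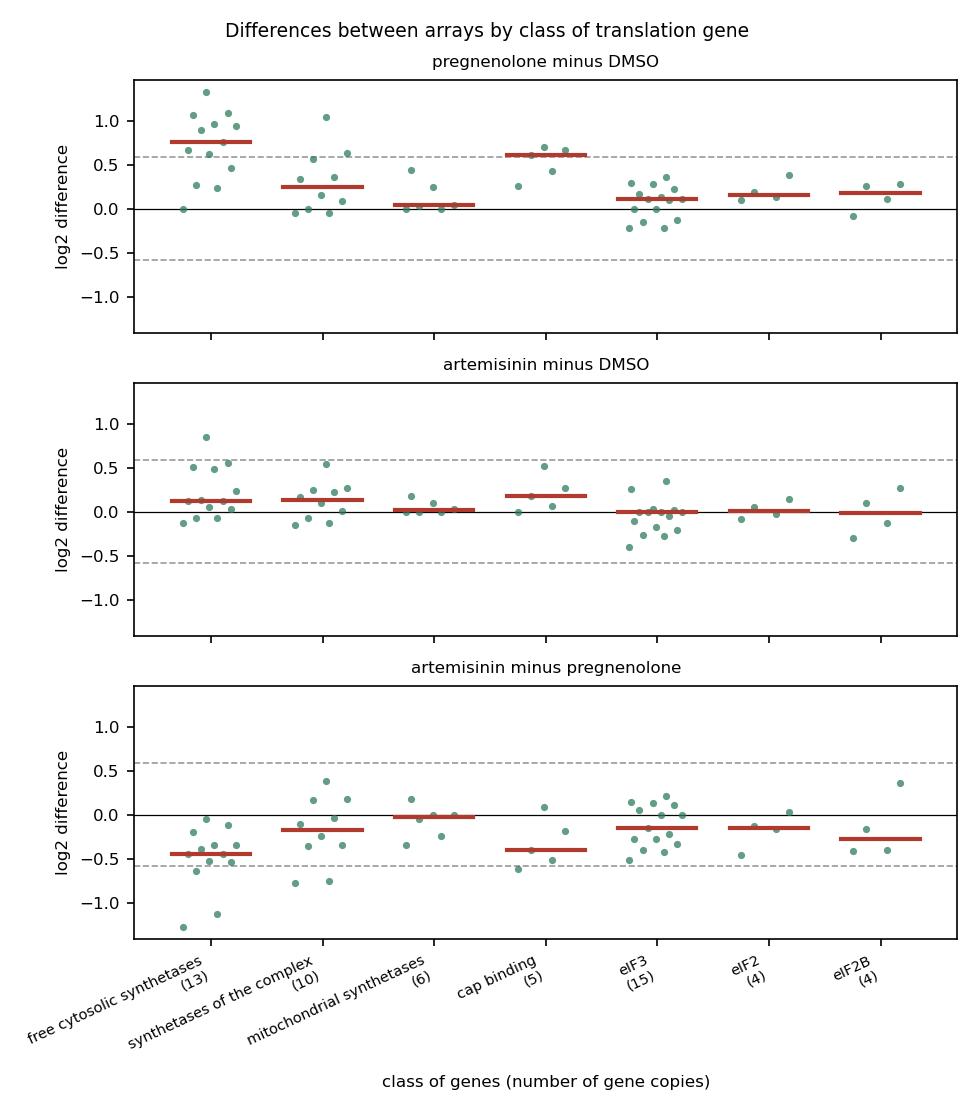
Log2 differences (y axis) of 7 classes of translation genes (x axis, number of copies in brackets) for pregnenolone minus DMSO (top), artemisinin minus DMSO (middle) and artemisinin minus pregnenolone (bottom). Each point is a gene copy, the red bar is the class median and the dashed lines mark 1.5-fold. The free cytosolic synthetases have medians of 0.76, 0.13 and -0.45 from top to bottom, and the eIF3 genes stay within the lines in every panel.

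Where a copy had several probe sets, they served as a check within the arrays, though they leave out variation between frogs. Over 2702 gene copies with more than 1 probe set, the SD between the probe sets of a copy was 0.25 for pregnenolone minus DMSO, 0.21 for artemisinin minus DMSO and 0.24 for artemisinin minus pregnenolone. For yars1.S all 4 probe sets were past 1.5-fold with pregnenolone, from 0.71 to 0.94. The 3 probe sets of vars1.S gave 0.57 to 1.28. The isoleucine enzyme iars1.S was the widest: the probe set used gave 0.33, whereas its other probe set, at 9.32 with pregnenolone, 8.26 with artemisinin and 7.04 with DMSO, gave 2.28 with pregnenolone and 1.22 with artemisinin. This gene is thus within 1.5-fold or far past it depending on the probe set. For eif4e1b.S both probe sets were past 1.5-fold with pregnenolone (0.62 and 0.71), and for eif4e2.L only the dimmer one was (0.72). The longest series, the 8 probe sets of eif3a.L, held 1 dim x_at probe set at -0.63 with pregnenolone and 0.88 with artemisinin, while the probe set used gave 0.11 and 0.26. For eif4h.S an s_at probe set with a mean of 7.54 gave -0.76 with artemisinin, past 1.5-fold below DMSO. The probe set used for eif4h.S gave -0.09 and the remaining one -0.23.

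**Figure D4:**
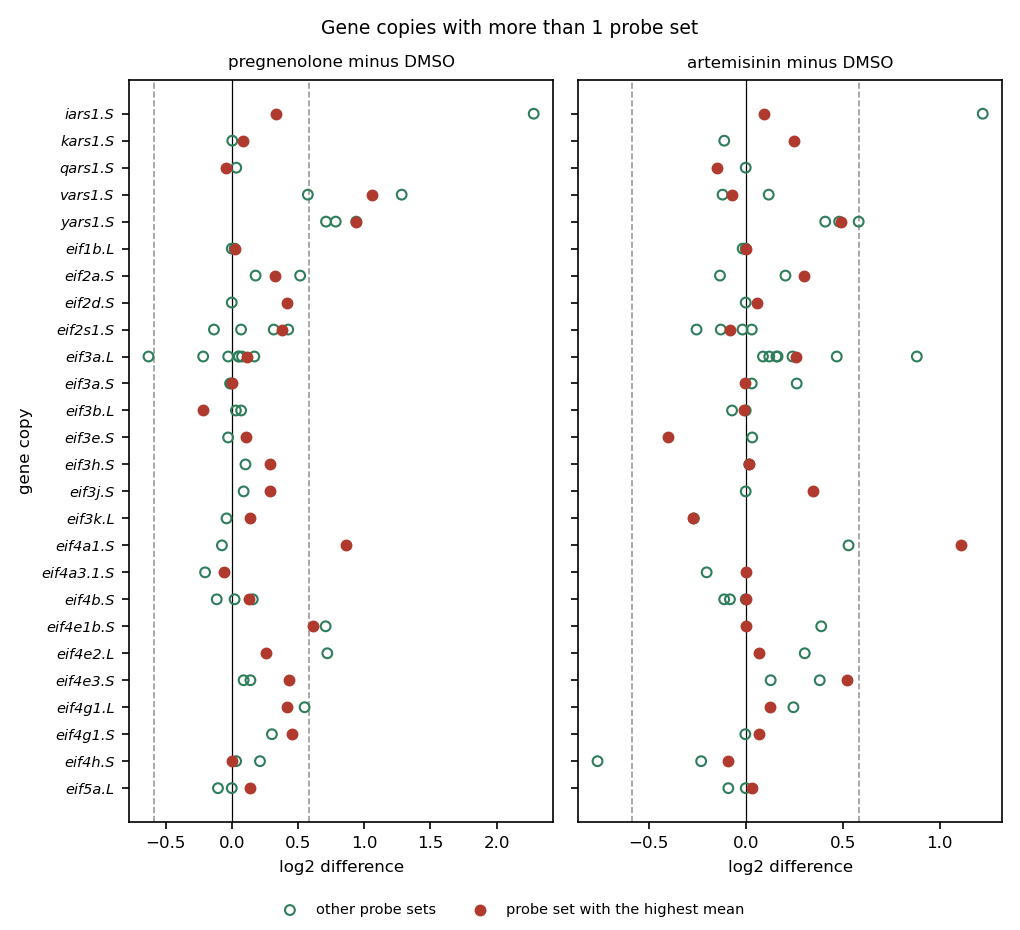
Log2 differences (x axis) of every probe set of the 26 member copies with more than 1 probe set (y axis), for pregnenolone minus DMSO (left) and artemisinin minus DMSO (right), with the probe set of highest mean filled and the others open. Dashed lines mark 1.5-fold. The open symbol of iars1.S lies at 2.28 and 1.22, far from its filled symbol at 0.33 and 0.09.

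Copies on the long and short chromosomes could be compared for 15 genes. With pregnenolone the gap between the copies was largest for eif3g (0.36 for .L and -0.12 for .S) and mars1 (1.05 and 0.56), and smallest for qars1 (-0.04 for both) and eif2s2 (0.13 and 0.10). With artemisinin it was largest for farsa (0.84 for .L and 0.23 for .S). Probes may bind the other copy, so the assignment of a value to a copy is uncertain.

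Many small differences on these arrays were exactly 0. Values were equal at the 6 deposited decimals on the pregnenolone and DMSO arrays for 24.4% of all gene copies, for 3 of the 29 synthetase copies and for 3 of the 50 initiation factor copies. On all 3 arrays they were equal for 14.9% of all gene copies and for eif3e.L and rars2.S among the members. An equal value therefore does not measure how alike the pools were.

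The genes around these factors were described next, from lists chosen with earlier results of these data known. Of 28 copies of ATF4 branch genes (ATF4 itself and genes linked to it in mammals) 9 were at least 1.5-fold higher with pregnenolone than with DMSO and 1 was lower, beside 4.64% and 3.75% of all gene copies. The median was 0.39. The proline synthesis gene pycr1.L had 7.37 with pregnenolone, 6.25 with artemisinin and 5.87 with DMSO, a difference of 1.5. The mitochondrial folate enzyme mthfd2.L had 11.68, 10.73 and 10.83 and differed by 0.85. In both, pregnenolone was the high array. The amino acid transporter subunit slc3a2.S (10.74, 10.33 and 9.88) differed by 0.86 and the transcription factor atf5.2.S (11.83, 11.35 and 10.84) by 0.995. The glutamine carrier slc1a5.S was high with both compounds, at 8.78 with pregnenolone, 8.91 with artemisinin and 6.28 with DMSO. The gene atf4.L itself was at 12.46 with pregnenolone, 11.95 with artemisinin and 11.88 with DMSO, a difference of 0.58 that lay just short of 1.5-fold. The amount of ATF4 is set mainly by translation, which an array does not measure.

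Not every gene of the ATF4 list followed. The stress gene nupr1.L was 0.91 lower than DMSO with pregnenolone, at 12.44 against 13.35, and 0.76 lower with artemisinin. The transcription factor gene cebpb.L (-0.01) and the cysteine synthesis gene copy cbs.S (-0.03) lay near DMSO with pregnenolone, while the other copy, cbs.L, was at -0.56. With artemisinin 3 of the 28 copies were higher, slc1a5.S (2.62), atf3.L (1.16) and cbs.S (0.72), and 1 was lower, beside 2.35% and 2.26% of all gene copies. The median was 0.20. Between the compounds 2 were higher with artemisinin and 6 lower, beside 3.89% and 4.86% of all gene copies. Among the lower were pycr1.L (-1.12), mthfd2.L (-0.95) and the serine synthesis genes psat1.L (-0.82) and phgdh.S (-0.78).

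Among the regulators of eIF2, the interferon-induced kinase gene eif2ak2.L differed in opposite directions. It was at 5.95 with pregnenolone, 7.64 with artemisinin and 7.04 with DMSO, or -1.09 with pregnenolone and 0.60 with artemisinin. The phosphatase subunit gene ppp1r15b.L was 0.67 above DMSO with pregnenolone. The ER kinase gene eif2ak3.S (0.31) and the heme-regulated kinase gene eif2ak1.L (0.11) lay at or below 5.04 on every array. In all, 1 of the 7 copies of this list was at least 1.5-fold higher with pregnenolone and 1 lower, beside 4.64% and 3.75% of all gene copies.

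A list of 5 copies had a median of 0.08 with pregnenolone. It held scaffold genes of the multisynthetase complex and pars2.L, the mitochondrial synthetase gene for proline, which the member rule does not take. The value of pars2.L was 5.97 on every array. At 1.5-fold 2 were higher than DMSO and 0 lower, beside 4.64% and 3.75% of all gene copies. Both were also at least 2-fold higher, beside 1.44% of all gene copies. The gene eef1e1.L, also called aimp3, had 10.52 with pregnenolone, 9.73 with artemisinin and 9.45 with DMSO, a difference of 1.07. The gene aimp2.S had 8.30, 7.98 and 7.25, a difference of 1.04, but its other copy aimp2.L differed by 0.08 and aimp1.S by -0.03. Of 16 copies of elongation and release factors, methyltransferases of eEF1A included, 2 were at least 1.5-fold higher with pregnenolone, eef1e1.L again and the release factor gspt1.L (0.65), and 0 lower, beside the same 4.64% and 3.75%. The regulators of the cap, the poly(A) tail and TOR also had 2 of 16 higher and 0 lower, beside that background. These were paip2b.L (0.64), which restrains poly(A)-binding protein, and the eIF4E kinase mknk2.S (0.64). The other copy of each gene was not higher on the pregnenolone array. The brighter kinase copy mknk2.L (mean 10.10, against 7.52 for mknk2.S) was at -0.23 with pregnenolone. The copy paip2b.S had the same value, 9.61, on every array, which does not measure whether it differed. With artemisinin mknk2.S was 0.66 above DMSO, while mknk2.L was at -0.36 and paip2b.L at -0.26.

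Of the 90 copies of cytosolic ribosomal proteins none was past 1.5-fold in any of the 3 comparisons. Among all gene copies 4.64% were higher and 3.75% lower with pregnenolone, and 2.35% and 2.26% with artemisinin. Between the compounds 3.89% were higher with artemisinin and 4.86% lower. The median level of the ribosomal protein copies was 13.58 on the pregnenolone array, 13.48 on the artemisinin array and 13.51 on the DMSO array. The highest values of any probe set on these arrays were 14.58, 14.62 and 14.59. Near the top of the scale an array can understate a difference, so the count of 0 does not show that these genes were steady. Their median differences were 0.02 with pregnenolone, -0.01 with artemisinin and -0.05 between the compounds.

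**Figure D5:**
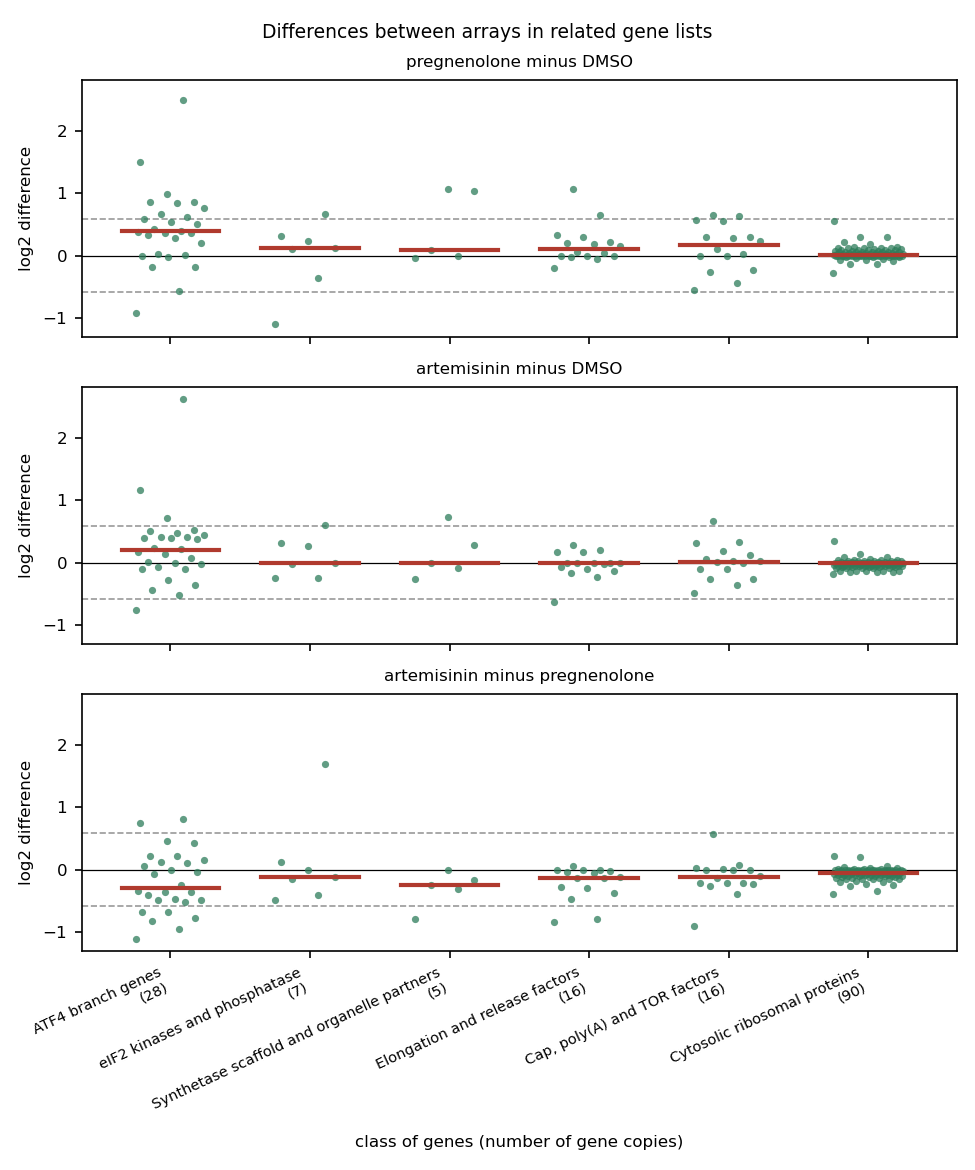
Log2 differences (y axis) of 6 related gene lists (x axis, number of copies in brackets) for pregnenolone minus DMSO (top), artemisinin minus DMSO (middle) and artemisinin minus pregnenolone (bottom). Points are gene copies, red bars list medians and dashed lines 1.5-fold. The ATF4 branch has medians of 0.39, 0.20 and -0.29, while the 90 ribosomal protein copies lie between the dashed lines in each panel.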

How the data were processed

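Liver RNA pooled by group was measured on 3 Affymetrix arrays, 1 each for pregnenolone, artemisinin and DMSO. The deposited values are log2 expression values made with RMA, per the submitters' processing notes, in a version not given in the sources used here. The log base follows from how RMA works and from the range of the values. RMA makes the distributions of the arrays alike, which removes differences in total message. Probe sets were named through the platform annotation: of 32635, 96 were controls, 15495 had 1 symbol, 279 several and 16765 none. RefSeq matched 78 of the 79 members by Entrez identifier, all under the same symbol. RefSeq holds 71 initiation factor and 46 synthetase copies that fit the rule, and those without a named probe set were not analysed here.

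Differences of log2 values were taken with Python 3.11.15 and pandas 2.3.3, a copy being counted at 1.5-fold. No test or p-value was computed, since each group has 1 array, and the number of arrays limits the precision. The steps were tested on simulated data. Alternatives were a 2-fold threshold, a level filter (5.61), averaging a copy's probe sets, median centring, removal of a loess trend (span 0.3), exclusion of s_at, x_at and a_at probe sets, and 1 row per gene. Members and lists were chosen with earlier results of these data known. All members could be named, and of each other list the members with the largest differences. Further examples were picked with their values in view.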

Additional observations from a re-analysis of the deposited data

How the results depend on the processing

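All 36 medians recomputed under the alternatives moved by less than the SD between probe sets of a copy: from 0.34 to 0.45 for synthetases with pregnenolone against DMSO, 0.09 to 0.15 with artemisinin against DMSO and -0.35 to -0.29 between the compounds, and from 0.11 to 0.18, 0.00 to 0.04 and -0.16 to -0.08 for initiation factors. That SD (0.21 to 0.25) is larger than the initiation factor medians and the synthetase median with artemisinin. For these a move to 0 would also have passed. That SD describes single probe sets, so it is a wide allowance for any median over 29 or 50 copies. The level filter kept 28 synthetase and 49 initiation factor copies, so it could move little. Of 84 counts recomputed, 69 were equal or stayed within 1.5 times, but these include counts that were 0 throughout. Such were the copies lower than DMSO, in both groups and with both compounds, and the synthetases higher with artemisinin than with pregnenolone. A count that stays at 0 says little about stability. The number of synthetases higher with pregnenolone was 10 to 12 under the alternatives other than the 2-fold threshold, and 4 at 2-fold. The 2-fold threshold gave 0 initiation factors higher with pregnenolone, 0 synthetases higher with artemisinin, and, between the compounds, 2 synthetases and 0 initiation factors lower. With artemisinin against DMSO, 2 synthetases were higher with the mean of the probe sets, 2 with the loess trend removed and 0 with 1 row per gene. In that comparison 1 initiation factor was higher with the level filter and 1 without s_at, x_at and a_at probe sets. Between the compounds, 0 initiation factors were higher with the level filter, which drops eif5b.L, and 2 without the s_at, x_at and a_at probe sets. There 0 were lower with the mean of the probe sets, the loess trend removed or those suffixes left out. Without those suffixes, eif4a1.S took its dimmer probe set, at 0.53 with artemisinin and 0.60 between the compounds. The copy eif4e1b.S took one at -0.32 between the compounds. For both copies the probe set left out was an a_at one. Averaged probe sets put iars1.S at 0.66 with artemisinin and eif4e1b.S at -0.47 between the compounds. With 1 row per gene, farsa.L (0.84) was averaged with farsa.S (0.23). The copies behind the moves with the loess trend removed were not followed. No paired analysis was possible because each group is 1 array, and no array could be left out for the same reason.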

Other observations

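A further list held chaperones of the endoplasmic reticulum, where secreted proteins fold, together with other genes of the response to unfolded protein there. It differed in both directions with pregnenolone. Of its 30 copies 6 were at least 1.5-fold higher and 6 lower than DMSO, beside 4.64% and 3.75% of all gene copies. The median of the list was -0.25. The copies of herpud1 lay on opposite sides of DMSO, at 0.92 for .L and -0.46 for .S. The chaperone hspa5.S was at 11.32 with pregnenolone, 11.33 with artemisinin and 10.10 with DMSO, and dnajb9.L at 11.49, 10.53 and 10.09. The chaperones hsp90b1.L (12.35, 12.69 and 13.32) and pdia6.S (11.31, 11.55 and 12.24) were lower on the arrays of both compounds than on the DMSO array, which also held the pancreas markers. What part pancreas RNA had in these values was not tested. Between the compounds, which leaves the DMSO array out, 1 of the 30 was higher with artemisinin and 3 lower, beside 3.89% and 4.86% of all gene copies.

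Probe sets annotated to several symbols were left out of the counts. Besides that of eif4a1, they were 1 for eif4g2.S together with a second gene (0.20 with pregnenolone and 0.09 with artemisinin), 1 for both copies of eif3e (-0.04 and -0.25) and 1 for both copies of eif3c (0.27 and 0.04).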
